A study of Mus musculus with 40 samples.

Results

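The response to rapamycin was examined in 9-month-old control mice, in the extensor digitorum longus (EDL), which is a fast muscle of the lower hindlimb. It was drawn from 10 of the 40 libraries of the series, chosen by their labels: 5 mice given vehicle (9mCON) and 5 given rapamycin (9mCON+RM), with 1 mRNA library per mouse. All 10 mice carried floxed Tsc1 alleles (Tsc1fl/fl, strain Tsc1tm1Djk/J) without Cre recombinase, so that Tsc1 was intact in both groups, and all were kept on standard chow. Treatment was 3 days of intraperitoneal vehicle or rapamycin, and the labels put the rapamycin dose at 4 mg per kg. The study text states a higher daily dose, so the dose is uncertain. Values are set beside 2 further vehicle and rapamycin pairs of 5 and 5 mice: the same genotype at 3 months (3mCON, 3mCON+RM), and 9-month mice that lack Tsc1 only in muscle fibers (9mTSCmKO, 9mTSCmKO+RM). These pairs share no library with the 9mCON pair.

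The kinase complex mTORC1 couples growth signals from insulin, IGF-1 and amino acids to protein synthesis and ribosome production. The TSC complex, of which Tsc1 is a subunit, holds mTORC1 back. Rapamycin binds FKBP12 and inhibits mTORC1. Messenger RNAs for ribosomal proteins and many translation factors belong to a class whose translation depends on mTORC1, and the measurements here concern the abundance of transcripts, not their translation.

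Total counts were 12234422 to 19535160 per library in 9mCON and 12532308 to 21315299 in 9mCON+RM. Expression is given as CPM, counts scaled to a common library total after TMM correction for differences in composition. The common biological coefficient of variation was 24.4% in 9mCON and 20.4% in 9mCON+RM, against 14.5% in 3mCON and 13.4% in 3mCON+RM. Skeletal muscle genes led the libraries: mean TPM was 35470 in 9mCON and 36090 in 9mCON+RM for Acta1 (skeletal actin), 18540 and 22570 for Ckm (muscle creatine kinase) and 13130 and 17750 for Myh4 (the fastest myosin heavy chain), against 10.83 and 20.02 for slow Myh7. Some libraries stood apart. 9mCON replicate 5 had the highest summed tendon markers (610 CPM, next 195 CPM), 9mCON replicate 2 the highest summed immediate early genes (2330 CPM, next 753 CPM), and 9mCON replicate 1 the highest erythroid sum (7250 CPM, next 1530 CPM). Levels relative to each gene's mean over the 10 libraries also varied with transcript length. The median of long genes minus that of short genes was -0.613 log2 units in 9mCON replicate 2, -0.451 in 9mCON+RM replicate 1 and 0.386 in 9mCON replicate 5. The part of length in the results was not tested.

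Rapamycin changed 760 of 13159 tested genes, which is 5.78% (edgeR quasi-likelihood test, Benjamini-Hochberg adjusted p under 0.05). Of these, 286 rose (2.17% of genes tested) and 474 fell (3.6%). At unadjusted p under 0.05, 1013 of the 13159 genes were higher and 1420 lower, and 6342 fitted values were positive and 6816 negative. The falls were larger: the median absolute log2 change was 1.15 for genes that fell and 0.6 for genes that rose, and 285 of the fallers but 35 of the risers changed at least 2-fold. The 5 values of each group did not overlap for 223 of the risers and 309 of the fallers, while 6.63% of all tested genes had no overlap. The number of calls was 413 (208 higher, 205 lower) without both 9mCON replicates 2 and 5, an alternative chosen after seeing the data. It was 418 without 9mCON+RM replicate 2, 460 without 9mCON+RM replicate 5 and 466 without 9mCON replicate 1.

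Many transcripts of the translation machinery rose. Of 52 tested initiation and elongation factors, 13 rose (25%, against 2.17% of all tested genes) and 0 fell, with a median log2 fold change of 0.33 against -0.01 over all genes. At unadjusted p under 0.05, 24 were higher and 0 lower, and DESeq2 called 17 higher and 0 lower. The count was 8 without 9mCON+RM replicate 2. Eif4b, which stimulates the helicase that unwinds messenger RNA for ribosome loading, showed the smallest adjusted p among them. Its 9mCON libraries 1 to 5 held 263, 285, 314, 336 and 382 CPM and its 9mCON+RM libraries 811, 924, 685, 752 and 767 CPM. Every treated muscle lay above every vehicle muscle, with a log2 fold change of 1.32 (SE 0.13, edgeR adjusted p = 6.25e-06). Eef2, the elongation factor that moves the ribosome along, stood at 1160, 1380, 1260, 1410 and 1530 CPM with vehicle and at 3460, 3270, 2730, 2910 and 2610 CPM with rapamycin. Again the groups did not overlap (log2 fold change 1.15, SE 0.14, adjusted p = 4.2e-05). Pabpc4, a poly(A)-binding protein, went from 446.5 ± 31.4 to 746.1 ± 90 CPM (SD, n = 5 each). Eif1, which helps select the start codon, went from 976.3 ± 131 to 1639 ± 286 CPM. Reads from near-identical copies limit some of these values, since 62.9% of the 31-mers of Pabpc4, 23% of those of Eif1, 21.2% of those of Eef2 and 5.29% of those of Eif4b also occur in transcripts of other genes. The remaining called members were Eef1a2, Eif2a, Eif2b5, Eif4a2 and the eIF3 subunits Eif3b, Eif3e, Eif3g, Eif3j1 and Eif3l, at log2 fold changes between 0.38 and 0.75.

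Eif4b lies at chr15:102073773-102097173 and Eef2 at chr10:81176631-81182498, both on the forward strand of GRCm38, and Actc1, described further on, at chr2:114047282-114053548 on the reverse strand. The 100 bases before the RefSeq start of each gene (GRCm38.p6) are printed 5′ to 3′ on the gene's strand. They are shown because Eif4b and Eef2 led the rise of the translation factors and Actc1 was among the largest falls. The Actc1 window, at chr2:114052876-114052975, lies within the gene span given above. The RefSeq start used for Actc1 thus differs from the 5′ end of that span. Capitals mark matches to 5 motifs searched on both strands, which do not overlap here. They were the E-box (CACGTG), the NF-Y core (CCAAT), the Sp1 core (GGGCGG), the TATA box (TATAAA) and the CREB site (TGACGTCA).
Eif4b: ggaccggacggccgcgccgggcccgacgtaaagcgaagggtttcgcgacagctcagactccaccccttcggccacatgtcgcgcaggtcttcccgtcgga
Eef2: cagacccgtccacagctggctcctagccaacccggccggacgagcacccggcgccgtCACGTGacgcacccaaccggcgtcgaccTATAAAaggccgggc
Actc1: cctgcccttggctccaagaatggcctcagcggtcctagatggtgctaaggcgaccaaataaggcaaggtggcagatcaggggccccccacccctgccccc
The Eef2 window held the E-box, which Myc and TFEB family factors bind, and the TATA box, while the Eif4b and Actc1 windows held none of these letters. Of 25 called translation and ribosome biogenesis genes with a promoter in the table, CACGTG occurred within 250 bases upstream in 1 (4%) and TATAAA in 4 (16%). Within 250 bases upstream, CACGTG occurred in 8.7% of the 230 risers with a promoter in the table and in 5.16% of 349 fallers, against 8.37% of all tested genes and 6.05% of all promoters. For the Sp1 core the shares were 65.2% of risers, 52.4% of fallers, 58.2% of tested genes and 32.9% of all promoters. The TATA box was found in 6.09% of risers and 12.6% of fallers, against 6.86% of tested genes and 13% of all promoters. In the same order, the NF-Y core was found in 33.9%, 33.2%, 36.4% and 34.5%, and the CREB site in 1.74%, 1.43%, 2.69% and 1.62%. These are matches of letters and not measured binding.

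Ribosome biogenesis factors, which cut, modify and assemble ribosomal RNA, behaved likewise. Of 67 tested, 17 rose (25.4%, against 2.17% of all genes) and 0 fell (25 and 0 at unadjusted p under 0.05, 23 and 0 by DESeq2), with a median of 0.24. Utp14a, a component of the small-subunit processome, stood at 16.8, 20.6, 17.7, 18 and 15.9 CPM in 9mCON and at 36.5, 41.3, 33, 30 and 36 CPM in 9mCON+RM. The treated values were about 1 log2 unit higher with no overlap (0.99, SE 0.12, edgeR adjusted p = 6.61e-05). Tsr1, which is needed for small-subunit maturation, rose by 0.97 (SE 0.15), and the helicase Ddx21 by 0.84 (SE 0.15). Polr3e, a subunit of RNA polymerase III, rose by 0.57 (SE 0.11). The structural proteins of the ribosome did not pass the test: of 83 cytosolic ribosomal protein genes edgeR called 0 in either direction (8 higher and 0 lower at unadjusted p under 0.05, where 1013 of all 13159 genes were higher, and 0 by DESeq2). Of the 83 fitted values 77 were positive, against 6342 of all 13159, with a median of 0.22 and a range from -0.3 to 0.5. The median was 0.10 without 9mCON+RM replicate 1, 0.12 without 9mCON replicate 5 and 0.39 without 9mCON replicate 2.

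Genes that feed protein synthesis rose in smaller numbers. Among 22 aminoacyl-tRNA synthetases, which charge tRNAs with amino acids, 4 rose (Vars, Qars, Kars and Mars), which is 18.2% against 2.17% of all genes. Vars, the valine enzyme, held 31.2, 34.5, 40.6, 38.4 and 54 CPM with vehicle and 73.1, 79.1, 67.8, 70 and 69.1 CPM with rapamycin, which did not overlap (0.85, SE 0.13, edgeR adjusted p = 0.000903). Kars and Mars were called with adjusted p = 0.0183 each, and lost the call without 9mCON+RM replicate 1 (Kars) or without 9mCON replicate 1 or 9mCON+RM replicate 5 (Mars). Of 21 snoRNA host genes, whose introns carry guide RNAs for ribosomal RNA modification, 3 rose (14.3%). They were Epb41l4aos (1.99, SE 0.38), 1110038B12Rik (1.55, SE 0.33) and Snhg5 (0.87, SE 0.22). Without 9mCON replicate 2, 6 of 20 host genes rose. The study text limits the transcript set to protein-coding genes although the table lists others, so values of these noncoding genes are uncertain. Impdh2, the rate-limiting enzyme of guanine nucleotide synthesis, rose by 0.86 (SE 0.14), and Ctps, which makes CTP, by 0.64 (SE 0.14), among 28 nucleotide synthesis genes (7.14%). Of the 31-mers of Impdh2, 43.2% occur in other genes.

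**Figure D1:**
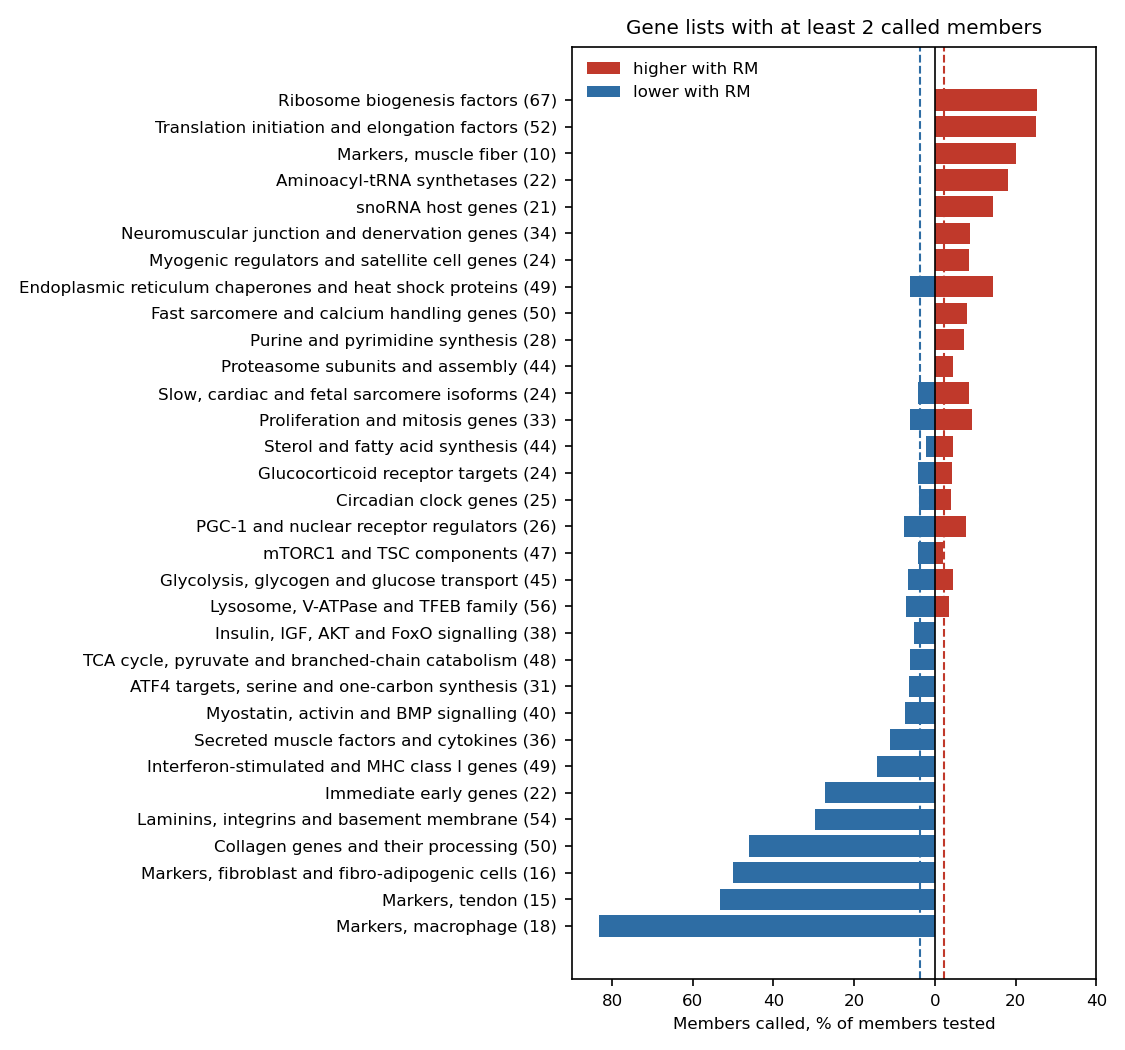
For each gene list with at least 2 called members, bars give the percentage of tested members (number in brackets) that were higher (right, red) or lower (left, blue) in 9mCON+RM than in 9mCON, and dashed lines give the percentages over all tested genes, 2.17 and 3.6. Ribosome biogenesis and translation factors have the longest bars to the right, and macrophage, tendon and fibroblast markers and collagen genes the longest to the left.

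Chaperone genes gave calls in both directions. Of 49 tested, 7 rose (14.3%, against 2.17% of all genes) and 3 fell (6.12%, against 3.6%). Hsp90ab1, the constitutive cytosolic HSP90, went from 1330, 1570, 1500, 1260 and 1330 CPM to 2710, 2990, 2220, 2090 and 2480 CPM, with no overlap (0.84, SE 0.12, edgeR adjusted p = 0.000405). Cct4 and Cct2, subunits of the chaperonin that folds actin and tubulin, rose by 0.74 and 0.61. P4hb, a disulfide isomerase of the endoplasmic reticulum, rose by 0.78. The 3 that fell act in the endoplasmic reticulum: Hspa5, its main HSP70 chaperone, went from 244.1 ± 16.4 to 181.8 ± 13.4 CPM (-0.43, adjusted p = 0.0268), Sdf2l1 changed by -1.01 and Pdia6 by -0.38. The count of risers was 3 without 9mCON replicate 1 or without 9mCON+RM replicate 1 and 4 without 9mCON+RM replicate 2. The count of fallers was 0 without 9mCON+RM replicate 2, without 9mCON+RM replicate 4 and without both 9mCON replicates 2 and 5, and 1 without 9mCON replicate 3 or 9mCON+RM replicate 1 or 3. Hspa5 was called in 21 and Pdia6 in 20 of 29 alternatives. Of 44 proteasome genes, Psmd4, a ubiquitin receptor of the regulatory particle, rose by 0.76 (SE 0.14) and Psmd2, with 31.6% of its 31-mers shared, by 0.61 (SE 0.15). These were 4.55% of the list, against 2.17% of all genes, and the fitted values were positive for 22 and negative for 22. At unadjusted p under 0.05, 10 proteasome genes were higher and 0 lower, where 1013 and 1420 of all 13159 genes were. DESeq2 called 6 higher and 0 lower. Psmd2 lost its call without 9mCON+RM replicate 2, and 4 proteasome genes rose without 9mTSCmKO replicate 1. Of 56 lysosomal genes 2 rose and 4 fell, which is 3.57% and 7.14% against 2.17% and 3.6% of all genes. Gaa, which degrades glycogen, was higher by 0.68 and Hexa by 0.56, whereas the cathepsins Ctsh, Ctsk and Ctss and the mannosidase Man2b1 were lower by 1.07, 1.69, 1.71 and 0.55 log2 units. Without 9mCON replicate 1 or 9mCON+RM replicate 2, 1 lysosomal gene rose and 2 fell. Without 9mCON+RM replicate 1, 1 rose, and without 9mCON replicate 5 or 9mCON+RM replicate 5, 2 fell. Ctss is abundant in macrophages, whose markers are given further on.

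Genes of the mTORC1 pathway itself mostly did not pass the test. Of 47 tested, Nprl3 (a subunit of the complex that silences mTORC1 when amino acids are scarce) rose by 0.42 and lost its call without 9mCON+RM replicate 1, with the 10 libraries alone and without both 9mCON replicates 2 and 5. Gatsl2, a relative of the arginine sensor CASTOR1, fell by 0.81 on the log2 scale (SE 0.16) and Ddit4l, an inhibitor of mTORC1 signaling, fell by 0.69 (SE 0.17). Ddit4l lost its call without 9mCON replicate 1, 9mCON replicate 2 or 9mCON+RM replicate 2, with all 40 libraries and without both 9mCON replicates 2 and 5. The list shares were 2.13% higher and 4.26% lower, against 2.17% and 3.6% of all tested genes, and 4 members rose without 9mCON replicate 5. The fallers were 1 without any one of 9mCON replicates 1 and 2 and 9mCON+RM replicate 2. Tsc1 stood at 82.9 ± 27.7 and 78.8 ± 5.51 CPM, Mtor at 45.4 ± 19.4 and 64.9 ± 9.96, Rptor at 42.2 ± 13.9 and 44.4 ± 2.16, and Fkbp1a, which encodes FKBP12, at 154.2 ± 35.4 and 155.3 ± 30.5 CPM, with adjusted p of 0.885, 0.217, 0.905 and 0.984. Eif4ebp1, the translation repressor that mTORC1 phosphorylates, narrowly missed the threshold (33.5 ± 4.88 against 46.1 ± 7.85 CPM, adjusted p = 0.065).

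In the insulin and IGF pathway 2 of 38 genes fell (5.26%, against 3.6% of all tested genes). Igf1, the growth factor, held 32.2, 15.2, 23, 17.3 and 23.7 CPM in 9mCON and 8.95, 9.16, 11.9, 12.2 and 7.82 CPM in 9mCON+RM. Each treated value was below each vehicle value (-1.16, SE 0.26, edgeR adjusted p = 0.00981). Irs2, an insulin receptor substrate, stood at 24.2, 48.4, 50.5, 56.3 and 56.4 CPM and at 28, 31.8, 23, 26.6 and 26.3 CPM, with 9mCON replicate 1 inside the treated range. It changed by -0.80 (SE 0.20, adjusted p = 0.0183) and lost its call without 9mCON replicate 5, without 9mCON+RM replicate 5 and without both 9mCON replicates 2 and 5. Igf1r and Irs1 had adjusted p of 0.911 and 0.869. For Foxo-linked atrophy genes, 0 of 27 were called by edgeR (3 higher and 2 lower at unadjusted p under 0.05, 2 and 2 by DESeq2), and the ubiquitin ligases Trim63 and Fbxo32 had adjusted p of 0.877 and 0.718. In lipid synthesis, Srebf1 (the regulator of fatty acid synthesis) went from 53, 48, 49.7, 55.4 and 67.1 CPM to 85.9, 77.7, 90.7, 89.2 and 98.9 CPM without overlap (0.69, SE 0.13, adjusted p = 0.00314). Acaca, which makes malonyl-CoA, rose by 0.85 (SE 0.15), with 33.4% of its 31-mers shared, and the desaturase Fads1 fell by 0.82 but was called in 15 of 29 alternatives. Of the 44 genes tested, 4.55% rose and 2.27% fell, against 2.17% and 3.6% of all tested genes. Srebf2, the regulator of sterol synthesis, had an adjusted p of 0.212.

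Contractile genes changed in a few members. Among 50 fast sarcomere and calcium handling genes 4 rose (8%, against 2.17% of all genes) and 0 fell (10 higher and 2 lower at unadjusted p under 0.05, where 1013 and 1420 of all 13159 genes were, 7 and 1 by DESeq2). Mybpc2, the fast myosin-binding protein C, stood at 4380, 3920, 4830, 4530 and 5500 CPM with vehicle and at 7740, 7950, 7820, 7810 and 8040 CPM with rapamycin. The treated values were narrowly grouped above the vehicle values (0.76, SE 0.14, edgeR adjusted p = 0.00324). Desmin (Des) rose by 0.67, Actn3 (fast alpha-actinin) by 0.60 and Atp2a1 (the fast calcium pump) by 0.55. The last 2 were called at adjusted p of 0.0324 and 0.034 and lost the call in 5 and 8 of the sets that each left out a single library of the 9mCON pair. The count for this list was 2 without any one of 9mCON replicates 1 and 2 and 9mCON+RM replicates 2 and 4, and 7 without 9mCON replicate 5. The myosin heavy chains Myh1, Myh2, Myh4 and Myh7 were 0.48, 0.74, 0.50 and 0.96 higher but not called (adjusted p 0.279, 0.413, 0.142 and 0.249), and 37.9%, 32.8%, 30.4% and 22.9% of their 31-mers are shared.

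Of 24 tested slow, cardiac and fetal sarcomere isoforms 2 rose (8.33%, against 2.17% of all genes) and 1 fell (4.17%, against 3.6%). At unadjusted p under 0.05, 9 were higher and 2 lower. The fitted values were positive for 19 of the 24, with a median of 0.42. The faller was Actc1, cardiac actin, which adult fast muscle largely replaces by skeletal actin. The 9mCON libraries held 261, 239, 205, 96.2 and 87.3 CPM and the 9mCON+RM libraries 39.4, 22.6, 19.7, 15.9 and 18.1 CPM. All treated muscles were below all vehicle muscles, with a log2 fold change of -2.94 (SE 0.38, edgeR adjusted p = 0.000109). Myoz2, a slow-fiber Z-disc protein, rose from 34.2, 56.7, 38.9, 54.5 and 54.7 CPM to 99.7, 87.5, 100, 69.7 and 80.8 CPM, with no overlap (0.87, SE 0.16, adjusted p = 0.00324). Ankrd1, a stretch-responsive sarcomere gene, was also called higher (1.62, SE 0.44), but its treated libraries stood at 45.2, 56.6, 260, 48.8 and 31.8 CPM and the call held in 20 of 29 alternatives. It was lost without 9mCON+RM replicate 3, the highest of them, and without any one of 9mCON replicates 1, 3, 4 and 5. Over the alternatives the fitted change of Ankrd1 ranged from 0.675 to 1.844.

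Cdh15, M-cadherin of muscle precursors and the fiber surface, was among the 10 largest rises of called genes without overlap. Vehicle libraries held 12.6, 14.7, 15.2, 17.1 and 22.2 CPM and rapamycin libraries 43.1, 38.1, 35, 33.8 and 35.9 CPM. There was no overlap (1.18, SE 0.17, edgeR adjusted p = 0.000528). Cntfr, the receptor subunit for ciliary neurotrophic factor, which denervated muscle induces, stood at 40.1, 61.9, 61.2, 53.2 and 60.4 CPM and at 261, 154, 155, 114 and 124 CPM. Its groups did not overlap either, with replicate 1 the highest treated library (1.55, SE 0.26, adjusted p = 0.00171). Hdac4, a denervation-responsive repressor, rose by 0.63 (SE 0.14) and Gdnf by 0.92 (SE 0.25), so that 3 of 34 junction and denervation genes rose (8.82%, against 2.17% of all genes), with Gdnf called in 21 of 29 alternatives. Over the list 18 fitted values were positive and 16 negative. Myog and Runx1, further denervation-responsive regulators, had adjusted p of 0.283 and 0.989, and Chrng, the fetal acetylcholine receptor subunit, had at most 3 counts in any 9mCON+RM library. Gm42047 showed the largest rise of the named genes, at 3.59, 2.62, 1.45, 2.06 and 2.05 CPM against 9.28, 21.9, 15.7, 14.4 and 19.7 CPM, but it is annotated as a lincRNA and 72.3% of its 31-mers occur in other genes. Among called genes without overlap and with a mean of at least 5 CPM in the higher group, the 10 largest rises also included Bex1 (1.21, with 30% of its 31-mers shared), Mid1ip1 (1.16) and the p53 relative Trp63 (1.14).

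**Figure D2:**
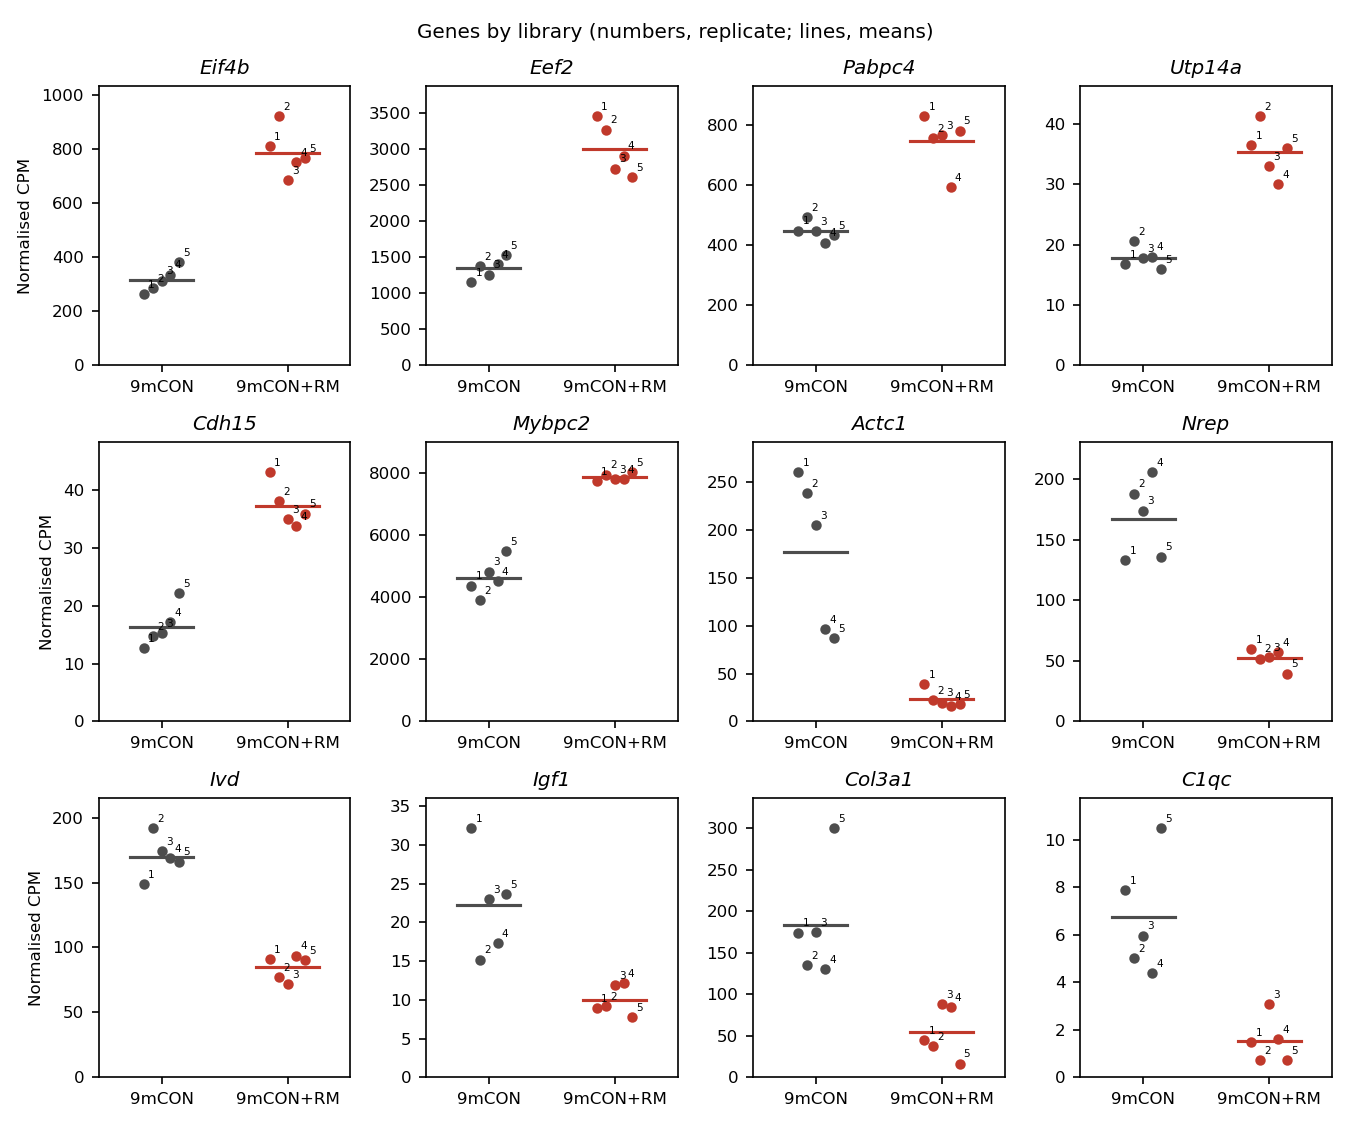
Normalised CPM of 12 genes in each of the 5 9mCON and 5 9mCON+RM libraries (points, numbered by replicate) with the group mean (line), each panel on its own axis from 0. The 2 groups do not overlap in any of the 12 panels.

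Metabolic lists showed few calls. In the TCA cycle and branched-chain amino acid list 3 of 48 genes fell (6.25%, against 3.6% of all tested genes), and these 3 act in branched-chain amino acid degradation. Ivd, which oxidizes the leucine product isovaleryl-CoA, stood at 149, 192, 174, 169 and 166 CPM with vehicle and at 91, 77, 72, 93.8 and 90.4 CPM with rapamycin. No treated value reached a vehicle value (-1.003, SE 0.12, edgeR adjusted p = 6.72e-05). Mccc2, on the same leucine pathway, fell by 0.65 on the log2 scale (SE 0.14), and Bcat2, the mitochondrial aminotransferase for all branched-chain amino acids, fell by 0.67 (SE 0.17). Bcat2 lost its call without 9mCON replicate 2, 9mCON+RM replicate 2 or 9mCON+RM replicate 4, and Ivd was the 1 faller left without both 9mCON replicates 2 and 5. Respiratory chain genes were called in 0 of 37 (complex I) and 0 of 40 (complexes III to V) cases by edgeR and by DESeq2, with 2 lower and 1 higher, respectively, at unadjusted p under 0.05. Their fitted values were negative for 32 of 37 and 36 of 40, against 6816 of all 13159 genes, with medians of -0.20 and -0.21. Without 9mCON replicate 2 the medians were -0.03 and -0.02. In fatty acid oxidation 0 of 41 genes were called by edgeR or DESeq2 or at unadjusted p under 0.05. Of 45 glycolysis and glycogen genes 2 rose (Gyg by 0.61 and Gpi1 by 0.45) and 3 fell (Pfkp by 0.91, Pygl by 1.28 and Pfkfb1 by 0.48), among which Pfkp and Pygl are the platelet and liver isoforms of phosphofructokinase and glycogen phosphorylase. These were 4.44% and 6.67% of the list, against 2.17% and 3.6% of all genes. The risers were 0 without 9mCON replicate 1, 9mCON+RM replicate 1 or 9mCON+RM replicate 2, and Gpi1 was called in 15 and Pfkfb1 in 8 of 29 alternatives. Ppargc1a, the coactivator of mitochondrial biogenesis, had an adjusted p of 0.862.

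A large share of the extracellular matrix genes fell. Of 50 collagen and collagen-processing genes, 23 fell, where 3.6% of all tested genes did, and 0 rose (33 lower and 2 higher at unadjusted p under 0.05, 27 and 2 by DESeq2), with a median of -0.81. Col3a1, a fibrillar collagen, stood at 174, 135, 175, 130 and 300 CPM in 9mCON and at 44.7, 37.2, 88.2, 84.3 and 16.7 CPM in 9mCON+RM. There was no overlap, although the highest vehicle value came from replicate 5 (-1.76, SE 0.37, edgeR adjusted p = 0.00771). Col1a1 held 188, 86.6, 198, 115 and 316 CPM against 35.6, 30.6, 73.1, 70.5 and 13.7 CPM (-2.02, SE 0.50, adjusted p = 0.0186). Its call was lost without 9mCON replicate 5, 9mCON+RM replicate 1 or 9mCON+RM replicate 2. The 3 collagen VI genes, made by fibroblasts around the fiber, changed by -1.21 (Col6a1), -1.45 (Col6a2) and -1.49 (Col6a3), and Col6a1 lost its call without 9mCON replicate 5 or 9mCON+RM replicate 2. Serpinh1, the collagen chaperone, changed by -0.89 (SE 0.16) and Loxl2, a crosslinking enzyme, by -1.35 (SE 0.24), with 46.2% of its 31-mers shared. The collagen count ranged lower without single libraries: 14 without 9mCON replicate 1, 11 without 9mCON replicate 5, and 12, 10 and 13 without 9mCON+RM replicates 1, 2 and 5. It was 10 without both 9mCON replicates 2 and 5.

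Among 54 basement membrane, integrin and other matrix genes 16 fell (29.6%, against 3.6% of all genes) and 0 rose (30 and 3 at unadjusted p under 0.05, 21 and 1 by DESeq2), with a median of -0.68, while 10 fell without 9mCON+RM replicate 2 and 9 without both 9mCON replicates 2 and 5. Thbs1, a matrix glycoprotein and TGF-beta activator, held 11.9, 62.5, 10.5, 11.3 and 28 CPM against 4.67, 3.46, 8.05, 4.17 and 3.41 CPM, with no overlap and with 9mCON replicate 2 highest (-2.39, SE 0.44). Fbn1, the microfibril protein fibrillin, changed by -1.81 (SE 0.34), Mfap4 by -2.71 (SE 0.47), Thbs4 by -1.59 (SE 0.31) and Ctgf, a TGF-beta and YAP target, by -1.32 (SE 0.29). Ctgf lost its call without both 9mCON replicates 2 and 5. Over the alternatives its fitted change ranged from -1.665 to -0.851, and that of Thbs1 from -2.645 to -1.23. In the myostatin, activin and BMP list 3 of 40 genes fell: the secreted protein Fstl1 (-1.15), the procollagen protease Bmp1 (-0.78) and Bmp2 (-0.75). This was 7.5%, against 3.6% of all genes, and the count was 1 without any one of 9mCON replicates 2, 3 and 5 and 9mCON+RM replicates 1, 2, 4 and 5. Bmp1 was called in 19 and Bmp2 in 10 of 29 alternatives.

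Markers of other cell types moved with these genes. Of 16 fibroblast markers 8 fell (50%, against 3.6% of all genes) and 0 rose (13 and 0 at unadjusted p under 0.05, 11 and 0 by DESeq2). Their summed level was 1590 to 2500 CPM in 9mCON (median 1940) and 489 to 1420 CPM in 9mCON+RM (median 1250), without overlap. Dpt (dermatopontin) stood at 64, 67.4, 59, 47.6 and 53.6 CPM against 27.4, 20.1, 24.9, 23.9 and 7.09 CPM, again without overlap (-1.50, SE 0.26, edgeR adjusted p = 0.00241). Of 15 tendon markers 8 fell (53.3%), and the sum was 118 to 610 CPM (median 143) against 47.5 to 106 CPM (median 66.1). Tnmd (tenomodulin, a defining tendon gene) held 5.29, 3.51, 3.47, 3.09 and 12.5 CPM against 0.401, 0.204, 1.73, 0.595 and 0.401 CPM, and Fmod (fibromodulin) 80.4, 40.9, 46.5, 33.1 and 275 CPM against 11.9, 8.55, 21.1, 12.2 and 6.49 CPM. Both were highest in 9mCON replicate 5 but separated the groups in all libraries (-3.10, SE 0.51, and -2.99, SE 0.61). The tendon count was 4 without any one of 9mCON replicate 5 and 9mCON+RM replicates 1, 2 and 5, and the fibroblast count was 4 without 9mCON+RM replicate 2. Without both 9mCON replicates 2 and 5, 3 fibroblast and 3 tendon markers were called. In whole muscle, fewer cells of a type and less RNA per cell cannot be told apart, and the part of these cells in the matrix result was not tested.

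Macrophage markers had the highest share of calls, 15 of 18 (83.3%, against 3.6% of all genes) with 0 rising (15 and 0 also at unadjusted p under 0.05 and by DESeq2), and a median of -1.58. C1qc, a complement component made by resident macrophages, stood at 7.88, 5.01, 5.97, 4.39 and 10.5 CPM in 9mCON and at 1.47, 0.712, 3.09, 1.62 and 0.736 CPM in 9mCON+RM, with no overlap (-2.17, SE 0.40, edgeR adjusted p = 0.00316). Lyz2, the lysozyme of myeloid cells, which shares 32.8% of its 31-mers with Lyz1, held 42.7, 32.9, 30.5, 22.1 and 56.4 CPM against 16.5, 8.29, 19.3, 15.8 and 6.29 CPM (-1.49, SE 0.28, adjusted p = 0.00324). The mannose receptor Mrc1 changed by -1.58 (SE 0.32) and the growth factor receptor Csf1r by -1.98 (SE 0.40). The sum over all 18 markers was 148 to 357 CPM against 74.4 to 164 CPM and overlapped. The count was 7 without 9mCON replicate 1 or without 9mCON+RM replicate 2, 8 without 9mCON replicate 5, 9 without 9mCON+RM replicate 5, and 5 without both 9mCON replicates 2 and 5. Of 16 listed T, B and NK cell markers only 2 passed the filter on low counts, and 1 of these, the pan-leukocyte gene Ptprc, fell by 1.36 on the log2 scale. Endothelial (9 tested) and smooth muscle (11 tested) markers were called in 0 cases by edgeR, by DESeq2 and at unadjusted p under 0.05. Their sums overlapped, at 422 to 640 against 443 to 706 CPM and 970 to 1430 against 938 to 1350 CPM. Adipocyte and erythroid sums overlapped as well. Summed muscle fiber markers were higher with rapamycin and did not overlap, at 188000 to 209000 CPM against 231000 to 251000 CPM. Of the 10 markers 2 rose (Actn3 and Atp2a1), which is 20% against 2.17% of all genes. None of the 10 was called without any one of 9mCON replicates 1, 2 and 4 and 9mCON+RM replicates 2 and 4.

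**Figure D3:**
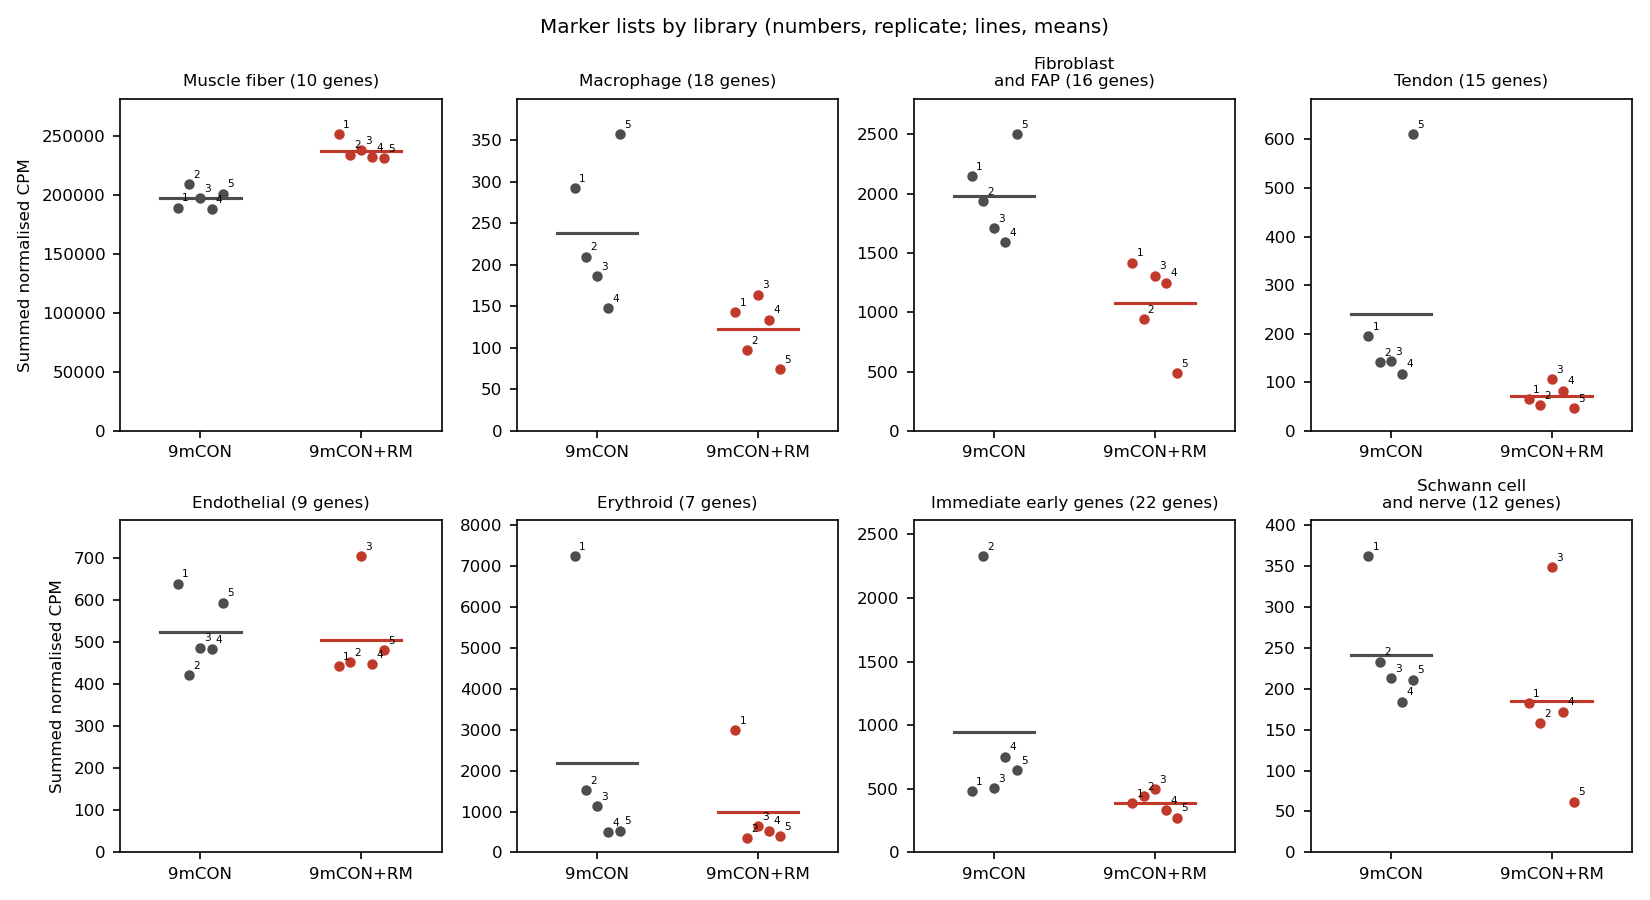
Summed normalised CPM of marker lists in each 9mCON and 9mCON+RM library (points), each panel on its own axis from 0. Tendon, fibroblast and muscle fiber sums do not overlap between the groups, lower with RM for the first 2 and higher for the third, while the endothelial sums overlap.

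Among 49 interferon-stimulated and MHC class I genes, 7 fell (14.3%, against 3.6% of all genes) and 0 rose (17 lower and 0 higher at unadjusted p under 0.05, where 1420 of all 13159 genes were lower, 9 and 0 by DESeq2). All 49 fitted values were negative, with a median of -0.50. The antiviral gene Bst2 changed by -0.98 (SE 0.23), the GTPases Gbp3 and Iigp1 by -1.03 and -1.44, and Oas2, a sensor of double-stranded RNA, by -1.32. The count was 1 without 9mCON replicate 1, 2 without 9mCON+RM replicate 2 and 3 without 9mCON+RM replicate 5. Macrophage markers moved with this list, and their part in it was not tested.

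Immediate early genes, which muscle activity induces quickly, included several fallers. Of 22 tested, 6 fell (27.3%, against 3.6% of all genes) and 0 rose (14 and 0 at unadjusted p under 0.05, 7 and 0 by DESeq2), with a median of -1.14. With the 10 libraries alone 2 fell. Without 9mCON replicate 2, 4 fell and 1 rose, with a median of -0.41, and 4 fell without 9mCON+RM replicate 1 or 5. Fosb held 2.29, 34, 1.77, 1.95 and 0.462 CPM in 9mCON and 0.0668, 0.407, 0.431, 0.425 and 0 CPM in 9mCON+RM. The groups did not overlap, but 9mCON replicate 2 was far above the others (-4.88, SE 1.005, edgeR adjusted p = 0.00625). Without that library Fosb changed by -2.56 (adjusted p = 0.0182), and without both 9mCON replicates 2 and 5 the list gave 3 fallers and 1 riser, with a median of -0.44. Nr4a1, a nuclear receptor of this class, stood at 109, 597, 192, 312 and 288 CPM against 83.4, 141, 84.3, 96 and 67.8 CPM, with 9mCON replicate 1 inside the treated range (-1.66, SE 0.31, adjusted p = 0.00314). Nrep, a small protein of regenerating nerve and muscle, had the smallest adjusted p of the named falling genes. It stood at 133, 188, 174, 206 and 136 CPM against 59.4, 51.9, 53.1, 57.2 and 39.4 CPM (-1.68, SE 0.15, adjusted p = 2.45e-06), with the groups well apart.

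Of the 33 proliferation genes, Ccne2 (cyclin E2), Mcm4 (a replication helicase subunit) and Tubb5 (a tubulin) rose by 0.96, 0.72 and 0.74, while the D-type cyclins Ccnd1 and Ccnd3 fell by 1.40 and 0.51 on the log2 scale. These were 9.09% and 6.06% of the list, against 2.17% and 3.6% of all genes. Tubb5 was called in 22 of 29 alternatives, and 1 gene of the list fell without 9mCON replicate 1 or 9mCON+RM replicate 5. In the ATF4, serine and one-carbon list the stress regulator Nupr1 and the serine synthesis enzyme Psph fell by 0.998 and 0.62, of 31 tested (6.45%, against 3.6%), and Atf4 had an adjusted p of 0.557. At unadjusted p under 0.05, 11 of the 31 were lower and 2 higher, where 1420 and 1013 of all 13159 genes were. DESeq2 called 2 lower and 1 higher, and 22 fitted values were negative. The fallers of this list were 0 without 9mCON+RM replicate 2, without 9mCON+RM replicate 5 and without both 9mCON replicates 2 and 5, and 1 without 9mCON replicate 1, 2 or 4 or 9mCON+RM replicate 4. Among secreted factors 4 of 36 fell (11.1%, against 3.6%), namely Nrep, Cxcl14 (-1.21), Sfrp4 (-1.35) and Metrn (-0.54), the last called in 16 of 29 alternatives. That count was 1 without 9mCON replicate 1, 2 without 9mCON+RM replicate 2, and 8 without 9mTSCmKO replicate 1. Clock genes gave 1 riser and 1 faller of 25 (4% each, against 2.17% and 3.6% of all genes), with Bhlhe41, a repressor of the clock, at -0.68 (SE 0.13).

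The pairs of other mice were set beside these values. In 3mCON, rapamycin changed 84 of 12958 genes (0.648%), and in 9mTSCmKO 2966 of 13159 (22.5%). Of the 286 risers, 278 (97.2%) had a fitted change in the same direction in 3mCON, where 66.3% of the 6183 genes tested in both ages with a positive value in 9mCON did, and 37 were called there (12.9% of these risers and 86% of the 43 genes that rose in 3mCON). In 9mTSCmKO 271 (94.8%, against 65.2% of the 6342 genes positive in 9mCON) had the same direction and 230 (80.4%) were called that way. The median change of the risers was 0.60 in 9mCON, 0.32 in 3mCON and 0.62 in 9mTSCmKO. Eif4b was 0.89 higher in 3mCON (adjusted p = 0.000263) and 1.54 higher in 9mTSCmKO, and Eef2 0.92 and 1.38 higher. Translation factors gave 5 risers in 3mCON and 16 in 9mTSCmKO, and biogenesis factors 1 and 22. Over all genes, 0.332% rose in 3mCON and 11% in 9mTSCmKO.

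For the fallers these shares were lower. Of 470 fallers tested in 3mCON, 258 (54.9%, against 65.8% of the 6595 genes tested in both ages with a negative value in 9mCON) changed in the same direction there and 15 were called (3.16% of the 474 fallers and 36.6% of the 41 genes that fell in 3mCON), where 0.316% of all genes fell. In 9mTSCmKO 393 of 474 (82.9%, against 71.9% of the 6816 genes negative in 9mCON) had the same direction and 143 (30.2%) were called. Median changes were -1.15 in 9mCON, -0.04 in 3mCON and -0.45 in 9mTSCmKO. For the collagen list the medians were -0.81, -0.03 and -0.20, and edgeR called 0 members lower in 3mCON and 4 of 50 in 9mTSCmKO, where 11.6% of all genes fell. Macrophage markers had a median of -1.58 in 9mCON but 0.46 in 3mCON, with 0 called there. Nrep was an exception, changed by -1.18 in 3mCON and -0.88 in 9mTSCmKO, both past the threshold.

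**Figure D4:**
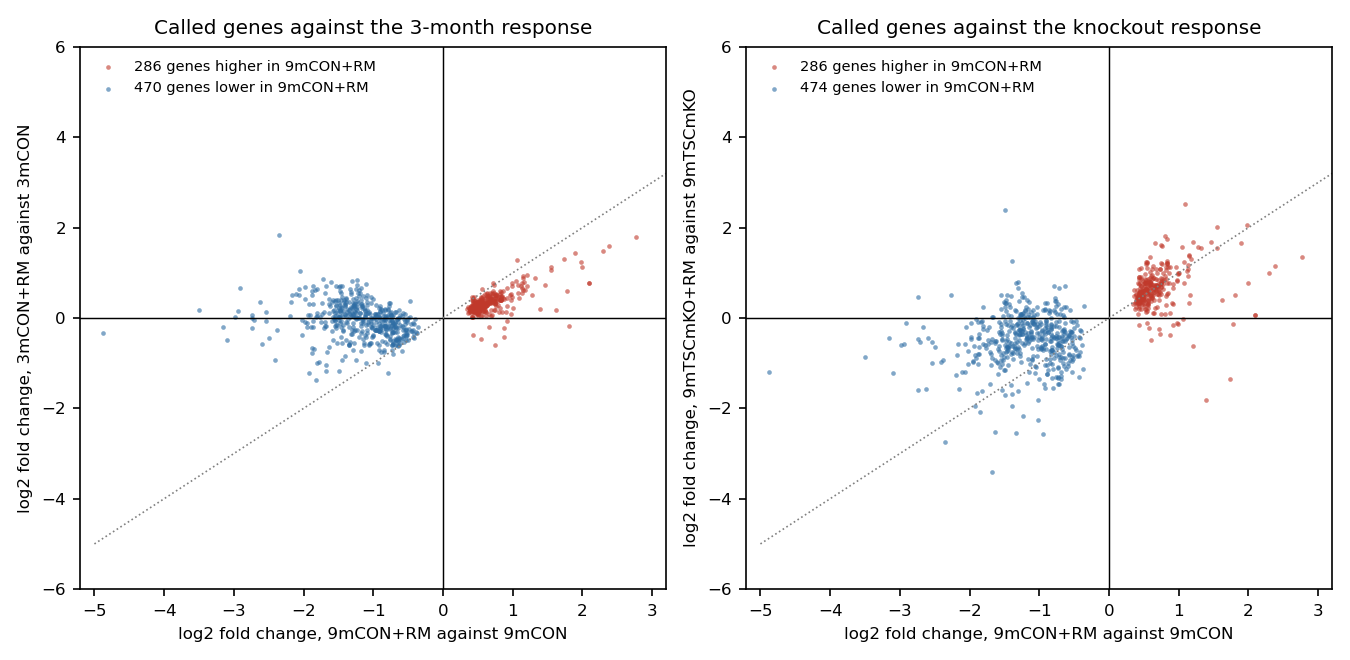
Each point is a gene called in 9mCON, with its log2 fold change there on the x axis and its log2 fold change with rapamycin in 3mCON (left) or 9mTSCmKO (right) on the y axis, and the dotted line marks equal values. Risers (red) lie mostly above 0 in both panels, and fallers (blue) scatter around 0 on the left and mostly below 0 on the right.

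Differences between the responses were tested as interactions. The response in 9mCON differed from that in 9mTSCmKO for 209 genes, 1.59% of those tested (103 with a higher and 106 with a lower value in 9mCON), and from that in 3mCON for 48 genes, 0.37% (4 higher and 44 lower). Cish, a feedback inhibitor of cytokine signaling, stood at 10.2, 37.9, 12.3, 20.5 and 16.4 CPM in 9mCON and at 7.55, 6.11, 4.82, 6.89 and 9.03 CPM in 9mCON+RM. In 9mTSCmKO it went the other way, from between 1.86 and 4.26 CPM to between 3.39 and 22.8 CPM, and the difference of log2 fold changes was -3.88 (edgeR adjusted p = 0.00222). Adamts8, an extracellular protease, held 1.76, 2.24, 2.82, 3.57 and 4.93 CPM against 4.74, 9.57, 11.5, 6.63 and 8.36 CPM, which overlapped at the edge, while in 9mTSCmKO it went from 15.6 to 29.4 CPM down to 4.68 to 7.37 CPM (difference 3.21, adjusted p = 0.000249). Mybph, a myosin-binding protein, gave -3.14 and 2310020H05Rik -2.86, whereas Map7d2 (3.44) and Adh7 (5.05) were at means of 0.77 CPM or less in both 9mCON groups and changed by -3.55 and -5.41 in 9mTSCmKO. Further named genes that differed included Irs2 (-1.50, adjusted p = 0.00639), Myoz2 (1.25, adjusted p = 0.00557), Serpinh1 (-1.23, adjusted p = 0.00557), Dpt (-1.74, adjusted p = 0.0167), Gadd45a (1.71, adjusted p = 0.00557), Hspa5 (0.87, adjusted p = 0.00557), Mybpc2 (-0.84, adjusted p = 0.0352) and Actc1 (-2.36, adjusted p = 0.0172). Igf1 missed the threshold (-1.25, adjusted p = 0.0876), and the differences of Eif4b and Eef2, both -0.22, had adjusted p of 0.633 and 0.653. The count of 209 was 128 to 138 without any one of 9mCON replicate 3, 9mCON+RM replicates 4 and 5, 9mTSCmKO replicate 4 and 9mTSCmKO+RM replicates 2, 3 and 5.

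Between ages, Actc1 showed the largest negative difference among the named genes that passed (-3.11, edgeR adjusted p = 0.0441). Its 3mCON libraries held 53.3, 65.1, 29.4, 131 and 69.4 CPM and its 3mCON+RM libraries 69.8, 156, 82.3, 56.8 and 23.6 CPM, which overlapped widely. C1qc (-2.71, adjusted p = 0.0335), Mfap4 (-2.69), Adam33 (-2.70), Oas2 (-1.92), Mertk (-1.87), Dpt (-1.74) and Cxcl14 (-1.84) were also lower in their 9-month response. Rmdn3 (0.99), Pla2g4e (1.27) and Ccndbp1 (1.31) were higher. The by-age calls depended on single libraries: Actc1 was called in 6 of 20 sets that left out a library, C1qc in 11 and Ccndbp1 in 14, while all 6 genes named first for the genotype difference were called in each of 28 alternatives. The count of 48 was 13, 31 and 9 without 9mCON replicates 1, 3 and 5 and 8 and 28 without 9mCON+RM replicates 2 and 4, and it was 5 to 25 without any one of 3mCON replicates 2, 4 and 5 and 3mCON+RM replicates 1, 4 and 5. It was 75 without 9mCON replicate 4, 178 without 9mCON+RM replicate 3, 120 without 3mCON replicate 1 and 208 without 3mCON+RM replicate 2. Age went with insert size in the labels, at 180 to 236 nt in both 3mCON groups against 223 to 289 nt in 9mCON and 258 to 305 nt in 9mCON+RM, with overlap between the ages for vehicle but not for rapamycin. With insert size as a term, 27 genes differed by age, which were all among the 48, and 729 were called in 9mCON.

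**Figure D5:**
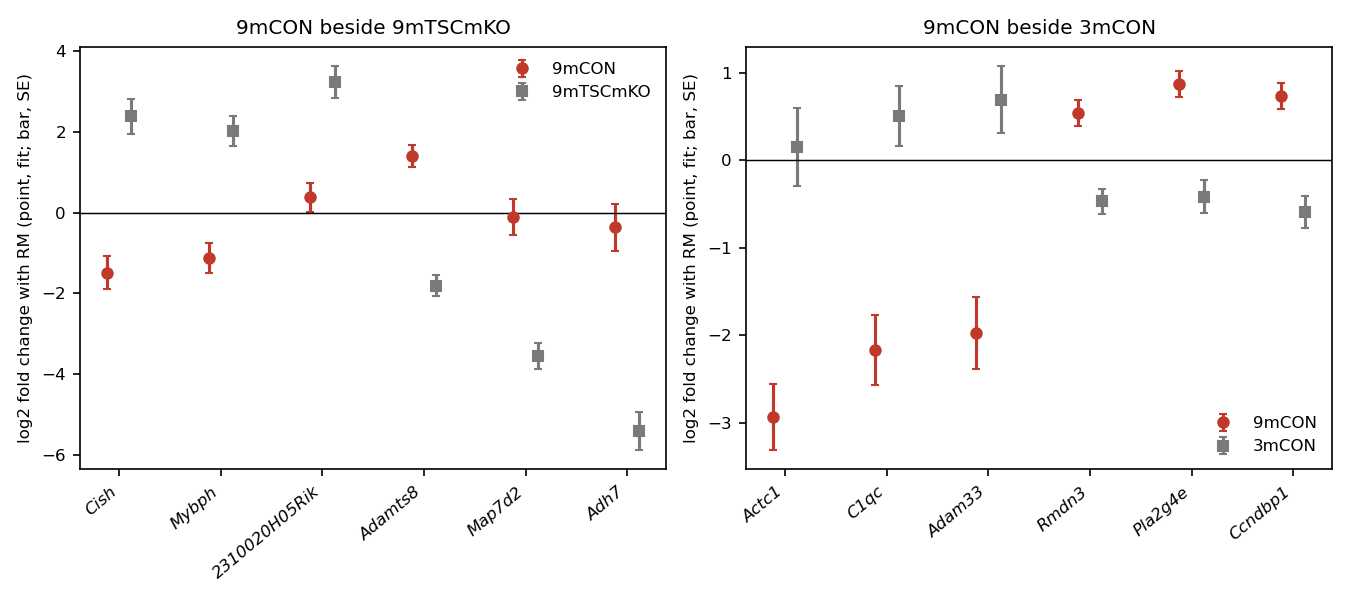
Log2 fold change with rapamycin (points) and its standard error (bars) for the 3 genes with the largest called differences in each direction between 9mCON and 9mTSCmKO (left) and between 9mCON and 3mCON (right), among genes with a mean of at least 5 CPM in the highest group. In the left panel Cish and Mybph are lower and Adamts8 higher with RM in 9mCON, opposite to 9mTSCmKO, and in the right panel Actc1, C1qc and Adam33 lie near -2 or below in 9mCON and above 0 in 3mCON.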

How the data were processed

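Libraries were directional, single-end and made from poly(A) RNA of whole EDL. Per the labels and the study text, the authors trimmed reads with cutadapt 1.9.1, assigned them with kallisto 0.43.1 to Ensembl transcripts of GRCm38 and shared multi-hit reads equally. The deposited table holds the resulting estimated counts for 22844 gene entries, of which 37 repeat a symbol. The TPM values were derived by the authors and are used here only to compare levels between genes.

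Estimated counts were rounded and fitted with edgeR 4.0.16 (limma 3.58.1, R 4.3.3) over the 20 libraries of 9 months, keeping genes at 1 CPM in at least 5 libraries (99.8% or more of counts), with TMM scaling, robust quasi-likelihood F-tests and Benjamini-Hochberg adjustment over all genes tested. The 3-month values and the age interaction come from a separate fit of 20 CON libraries. Values are mean ± SD or single libraries, standard errors follow from the F-statistics, and tests are two-sided. The floor of detection was 3 counts.

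Members and gene lists were chosen with earlier results of these data known. Named genes were the 10 largest rises and 10 largest falls among called genes without overlap and with a mean of at least 5 CPM. Added to these were up to 4 called members per list and direction, and the 3 largest called interactions in each direction with such a mean. Always given, called or not, were 32 genes. Members listed outside this rule were chosen after their values were seen. The script was tested on simulated data. Replicates came from separate mice, and no pair of libraries agreed within counting error. Alternatives were all 40 libraries, the 10 libraries alone, other scalings, no filter, insert size as a term, DESeq2 1.42.0, a replicate block and leaving out each library. RefSeq supplied the promoters.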

Additional observations from a re-analysis of the deposited data

Results flagged for a closer look

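A library far from the 4 others of its group was found in 18 of 96 sets of values examined, where chance gives about 1 in 20. In 9mCON, replicate 5 was high for Fmod (275 CPM), Tnmd (12.5 CPM), Col3a1 (300 CPM) and the summed tendon markers (610 CPM). Replicate 2 was high for Fosb (34 CPM) and the summed immediate early genes (2330 CPM). Replicate 1 was low for Irs2 (24.2 CPM) and high for the summed T, B and NK cell markers (11.4 CPM), the Schwann cell and nerve markers (362 CPM) and the erythroid markers (7250 CPM). In 9mCON+RM, replicate 1 was high for Cntfr (261 CPM), Actc1 (39.4 CPM) and the erythroid markers (2990 CPM). Replicate 3 was high for Tnmd (1.73 CPM), Thbs1 (8.05 CPM), Ankrd1 (260 CPM) and the endothelial markers (706 CPM), and replicate 2 was low for the T, B and NK cell markers (2.95 CPM).

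The response to rapamycin differed by an interaction test between 9mCON and 9mTSCmKO for 209 genes and between 9mCON and 3mCON for 48 genes (edgeR, adjusted p under 0.05). Among the called genes with a mean of at least 5 CPM in the highest group, the 3 largest differences of log2 fold changes in each direction by genotype were those of Cish (-3.88), Mybph (-3.14), 2310020H05Rik (-2.86), Adamts8 (3.21), Map7d2 (3.44) and Adh7 (5.05). By age, again among called genes with such a mean, they were those of Actc1 (-3.11), C1qc (-2.71), Adam33 (-2.70), Rmdn3 (0.99), Pla2g4e (1.27) and Ccndbp1 (1.31).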

How the results depend on the processing

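No named gene called in 9mCON reversed its direction under any alternative, whereas fitted values near 0 of genes not called, such as Tsc1 (-0.208 to 0.115) and Fbxo32 (-0.094 to 0.325), took either sign. Of the 128 named genes called in 9mCON, 73 kept their call in every alternative. Cct2, Gyg, Sdf2l1, Snhg5, Ptprc, Gbp3, Iigp1, Oas2, Sfrp4, Cxcl14, Ctss and Nupr1 were called in 24 to 27 and Psph in 20 of 29, each losing the call without at least 1 library of the 9mCON pair. The 760 calls became 1604 with all 40 libraries, 1147 with DESeq2 and 413 without both 9mCON replicates 2 and 5 (added after seeing the data, with 391 genes shared). They became 554 with the 10 libraries alone, 794 (246 higher, 548 lower) with upper-quartile scaling, 578 without the filter and 719 with a replicate block. Same-numbered libraries of the 2 groups did not deviate together (r from -0.167 to 0.0553), and no library correlated best with its own number. These values thus showed no pairing by number, but with 5 libraries per group they cannot exclude one. The 188 calls among list members became 314 with all 40 libraries and 111 without both replicates. The 209 genotype differences became 660 with all 40 libraries, 480 with DESeq2, 132 without the filter, 130 with insert size as a term, 131 without both replicates and 171 with the replicate block. The 48 age differences became 127, 217 and 27 with all 40 libraries, DESeq2 and insert size, and 57 with the block. The 84 calls in 3mCON became 55 without the filter, 233 with DESeq2 and 52 with the block, and the 2966 in 9mTSCmKO became 2983 with the block. Leaving out each library gave 418 to 1030 calls in 9mCON (highest without 9mTSCmKO replicate 1), 112 to 228 among list members, 128 to 252 by genotype, 5 to 208 by age, 22 (without 3mCON+RM replicate 4) to 145 (without 9mCON replicate 2) in 3mCON and 2304 to 3101 in 9mTSCmKO. The causes were not tested. At this depth, genes near 1 CPM rest on few counts.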

Other observations

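Some lists not described above held 1 or 2 calls in 9mCON. Of 24 glucocorticoid receptor targets 1 rose and 1 fell (4.17% each, against 2.17% and 3.6% of all tested genes), and 17 fitted values were negative. The faller was Mertk, a receptor tyrosine kinase also found on macrophages, which changed by -1.40 (SE 0.30, edgeR adjusted p = 0.00758) without overlap and was called in all 29 alternatives. The riser, Fkbp5, a glucocorticoid-induced gene that encodes a relative of FKBP12, went from 34.6 ± 16.1 to 79.7 ± 32.1 CPM (SD, n = 5 each; log2 fold change 1.20, SE 0.35, edgeR adjusted p = 0.0442), with overlap between the groups, and was at -0.61 in 9mTSCmKO. The call of Fkbp5 held in 15 of 29 alternatives and was lost without any one of 9 libraries. Dnm1l, the dynamin that divides mitochondria, fell from 118.5 ± 23.9 to 76.6 ± 9.54 CPM (-0.63, adjusted p = 0.00864) and was called lower in 9mTSCmKO as well (-0.51). It was 1 of 49 genes of mitochondrial import, proteostasis and dynamics (2.04%, against 3.6% of all tested genes). Mrps30, a mitochondrial ribosomal protein, rose from 48 ± 6.74 to 75.5 ± 13.4 CPM. It was the only riser of 78 such genes in the main fit (1.28%, against 2.17% of all tested genes). The fitted values were negative for 51 of the 78, and up to 4 rose when a library was left out. Optn, an autophagy receptor, rose by 0.57 and the glycine transporter Slc6a9 by 0.74, whereas the glutathione transferase Gsta4 and the Schwann cell marker S100b fell by 0.73 and 1.05 on the log2 scale. Each was the only call of its list. Optn was 2.27% of 44 autophagy genes and Slc6a9 3.45% of 29 amino acid transporters, against 2.17% of all genes. Gsta4 was 2.5% of 40 antioxidant response genes and S100b 8.33% of 12 Schwann cell and nerve markers, against 3.6%. Of these, S100b was called in 14, Slc6a9 in 22, and Optn and Gsta4 in 26 of 29 alternatives.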
